A study of Homo sapiens with 12 samples.

Results

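The genes described here build ribosomes in the nucleolus: 46 listed genes for RNA polymerase I and for proteins that modify, cut and fold ribosomal RNA. They were chosen by name from a list, with earlier results of these data known. Each is represented by the probe set that carries its symbol alone, the brightest one over all 12 arrays where there were several. Of the 46 listed members, 42 were measured in this way, among 18404 genes in all; NOP56, PPAN, DDX18 and GNL3 had no probe set of their own. The members were NOB1, NPM1, NPM3, NCL, FBL, NOP2, NOP14, NOP16, NOP58, DKC1, NHP2, GAR1, MRTO4, RRS1, RRP1, RRP9, RRP12, BOP1, PES1, WDR12, WDR3, WDR43, WDR74, BYSL, NOLC1, NOC2L, NOC3L, NOC4L, DDX10, DDX21, DDX56, UTP4, UTP15, UTP20, TSR1, LYAR, POLR1A, POLR1B, POLR1C, RRN3, UBTF and TAF1D.

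The established human melanoma lines A375 and A2058 were compared, and the labels give BRAF V600E for all 12 samples. Each line was measured with DMSO, the solvent, and with vemurafenib, an inhibitor of mutant BRAF, on 3 arrays per group, which makes 4 groups. Vemurafenib was given at 1 µM for 72 h and refreshed every 24 h, per the labels' protocols, whose text names A375p cells alone although it stands on all samples. Labels do not say whether the 3 arrays of a group came from separate cultures, so p-values measure the spread between arrays, which may be technical.

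Ribosome production starts when RNA polymerase I copies the ribosomal DNA into one long precursor RNA. Small nucleolar ribonucleoproteins (snoRNPs) modify that precursor, and 2 sets of assembly factors cut it and package the parts with ribosomal proteins into the small and the large subunit. Growing cells spend much of their energy on this work, and its genes are known targets of MYC and of growth factor signalling, of which the RAF and ERK kinases blocked by vemurafenib are a part.

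Values are deposited log2 expression, so a difference of 1 is a doubling of the signal. Each change is the difference between group means on that scale, ± SE, from one limma fit over all 12 arrays, and a gene was called at a Benjamini-Hochberg adjusted p under 0.05 over all 18404 genes. A call of "rose" or "fell" below always means that this test was passed. RNA came from whole cultures, in which fewer cells of a type and less RNA per cell cannot be told apart. How the arrays were normalized is not given, and scaling them to one another would hide any change shared by all genes. Members were bright on these arrays, with mean levels of 6.68 (NOP16) to 11.14 (NPM1) and a median of 8.35, against a median of 6.06 for all genes.

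Arrays within a group correlated at r of 0.9939 to 0.9989 across genes. Replicate 1 of A375 with vemurafenib was the least like its partners, with r of 0.9939 and 0.9941 to them, while those reached 0.9982 with each other. Its members were low: in 32 of 42 it was the lowest of the 3 arrays and in 6 the highest, with a median of -0.12 against the mean of the other arrays of its group, where the median over all genes was 0.012. Drug-response and response-difference counts over all members, and member calls that it changes, are therefore given with and without it. Counts by role, of other gene lists and between the lines under vemurafenib use all arrays. The ERK targets DUSP6, SPRY4, ETV4 and ETV5 all fell in both lines, with log2 changes of -3.91 to -1.33 in A375 and -3.71 to -1.95 in A2058. For the 7 of 8 melanocyte markers that were measured, the array means were 6.55 to 6.65 in A375 with DMSO and 6.88 to 6.97 with vemurafenib, and 8.55 to 8.62 and 9.95 to 9.97 in A2058. Of these 7 markers, 3 rose and 1, SOX10, fell in A375, and 6 rose and none fell in A2058. In A375 the pigment genes MLANA, PMEL and TYR lay at 4.38 to 5.18, near the low end of the scale, while MITF, SOX10 and S100B were well above it. Among markers of other cell types, 3 of 8 fibroblast genes rose and 1 fell and 3 of 6 epithelial genes fell in A375, none of 5 endothelial and 1 of 5 blood genes changed there, and in A2058 5 of these 24 genes fell and none rose. Of all genes, 17.7% rose and 19.3% fell in A375, and 14.6% rose and 12.5% fell in A2058. Array means of these 4 marker lists lay between 4.70 and 6.05, and their part in the results was not tested.

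Vemurafenib lowered most of these genes in A2058 and fewer of them in A375. In A2058, 34 of 42 members fell and none rose, where 12.5% of all genes fell and 14.6% rose. The median member changed by -0.36, against 0.0064 for all genes. In A375, 18 members fell and 5 rose, where 19.3% of all genes fell and 17.7% rose, with a median of -0.13 against 0.0042. Without A375 vemurafenib replicate 1, 19 fell and 5 rose in A375, with BYSL and RRP1 added to the falls, NOC3L lost from them, and UTP20 in place of UBTF among the rises. In A2058 36 then fell, with UTP20 and WDR12 added. Leaving out that array also raised the counts over all genes, in A375 from 3551 to 3996 falls and from 3265 to 3789 rises. Falls over all genes in A2058 went from 2300 to 2730. With all 12 arrays, calls in either direction covered 37.0% of all genes in A375 and 27.1% in A2058. Drug and DMSO arrays did not overlap in 37 members in A2058, all lower with the drug (18.7% of all genes were lower and 21.9% higher without overlap), and in A375 in 22 lower and 5 higher (22.6% and 21.0%). In all, 17 members fell in both lines, against 6.85% of all genes. A further 15 fell in A2058 without a call in A375, BOP1 fell in A375 without a call in A2058, and 2, NOP2 and RRS1, fell in A2058 and rose in A375. POLR1A, UBTF and UTP15 rose in A375 without a call in A2058, and RRN3, GAR1, UTP20 and WDR12 were called in neither. Across the 42 members the responses of the 2 lines correlated at r = 0.388, close to r = 0.369 across all 18404 genes; these points share arrays and genes are not independent replicates.

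**Figure D1:**
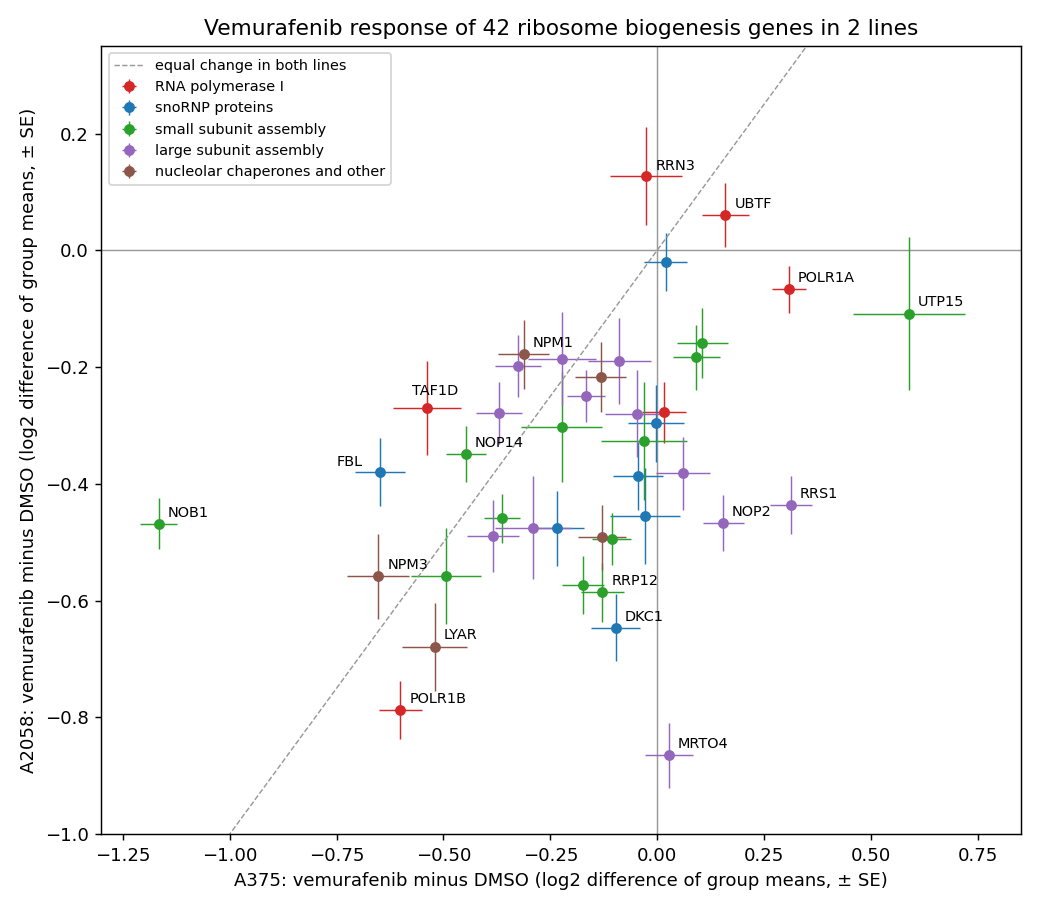
Each point is 1 of the 42 members, with its vemurafenib response in A375 on the x axis and in A2058 on the y axis (log2 differences of group means, bars are SE of the fit, 3 arrays per group), coloured by role. Points spread along x from NOB1 at -1.17 to UTP15 at 0.59, while all but RRN3 and UBTF lie below 0 on the y axis; the dashed line marks an equal change in both lines.

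Of 6 members that make up the enzyme and its initiation factors, 2 fell and 2 rose in A375, where 19.3% of all genes fell and 17.7% rose, and 3 fell and none rose in A2058, where 12.5% fell and 14.6% rose. POLR1B, the second largest subunit, fell most. Its log2 expression was 9.30, 9.31 and 9.26 on the A375 DMSO arrays and 8.59, 8.70 and 8.78 on the A375 vemurafenib arrays. In A2058 it was 8.49, 8.44 and 8.52 with DMSO and 7.76, 7.67 and 7.66 with vemurafenib. The drug arrays lay below the DMSO arrays without overlap in each line, at -0.60 ± 0.050 in A375 (1.52-fold lower, adjusted p = 7.27e-07) and -0.79 ± 0.050 in A2058 (1.73-fold lower, adjusted p = 1.13e-07). The responses differed by 0.19, which was not called (adjusted p = 0.0697), but without A375 vemurafenib replicate 1 the difference was 0.23 and was called (adjusted p = 0.00953).

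POLR1A, the largest subunit, which forms the catalytic centre together with POLR1B, moved the other way in A375. Values were 8.05, 7.98 and 8.02 with DMSO and 8.34, 8.30 and 8.34 with vemurafenib, a rise of 0.31 ± 0.040 (adjusted p = 4.1e-05) with every drug array above every DMSO array. In A2058 they were 8.14, 8.18 and 8.18 with DMSO and 8.07, 8.07 and 8.17 with vemurafenib, groups that overlapped (-0.067 ± 0.040, adjusted p = 0.294). The difference between these responses was 0.37 ± 0.057 (adjusted p = 0.000231). The largest subunits of one enzyme thus moved in opposite directions in A375.

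POLR1C, a subunit shared with RNA polymerase III, measured 7.35, 7.27 and 7.38 with DMSO and 7.40, 7.39 and 7.25 with vemurafenib in A375, with no call (0.015 ± 0.052, adjusted p = 0.879). In A2058 it went from 7.22, 7.15 and 7.12 to 6.85, 6.88 and 6.93, a fall of all drug arrays below all DMSO arrays (-0.28 ± 0.052, adjusted p = 0.0013). The responses differed by 0.29 ± 0.074 (adjusted p = 0.00876).

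TAF1D belongs to the promoter selectivity factor that recruits the enzyme to ribosomal DNA. It measured 8.28, 8.31 and 8.35 with DMSO and 7.56, 7.86 and 7.91 with vemurafenib in A375, and 7.53, 7.43 and 7.56 with DMSO and 7.34, 7.17 and 7.21 with the drug in A2058. It fell without overlap in both, at -0.54 ± 0.080 in A375 (adjusted p = 0.000132) and -0.27 ± 0.080 in A2058 (adjusted p = 0.0242). The A2058 call was lost when A2058 DMSO replicate 1 or 3 or A2058 vemurafenib replicate 2 or 3 was left out, at adjusted p of up to 0.0968. Other probe sets that name TAF1D also name small nucleolar RNAs and were not used.

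UBTF, which binds along the ribosomal DNA, measured 8.77, 8.76 and 8.80 with DMSO and 9.04, 8.87 and 8.90 with the drug in A375 and 9.03, 9.11 and 9.12 with DMSO and 9.09, 9.12 and 9.24 with the drug in A2058. Its rise in A375 (0.16 ± 0.055, adjusted p = 0.0378) did not pass with replicate 1 of the A375 drug group, its highest array, removed (0.11, adjusted p = 0.115), nor without A375 DMSO replicate 1, 2 or 3 or A2058 vemurafenib replicate 2. In A2058 it was not called (0.061 ± 0.055, adjusted p = 0.545). RRN3, the initiation factor through which growth signals reach the enzyme, measured 8.93, 8.78 and 8.99 with DMSO and 8.68, 8.99 and 8.95 with the drug in A375 and 8.14, 8.10 and 8.30 with DMSO and 8.30, 8.26 and 8.35 with the drug in A2058. Its groups overlapped in each line, and it was called in neither (adjusted p = 0.873 and 0.348).

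The snoRNP proteins, which carry the guide RNAs that mark sites for modification, fell mainly in A2058. There 6 of 7 measured fell, with a median of -0.39, and in A375 2 of 7 fell, with a median of -0.045. Of all genes, 12.5% fell in A2058 and 19.3% in A375. FBL, fibrillarin, the methyltransferase of the box C/D class, was the exception in that its fall was larger in A375. Values were 10.56, 10.53 and 10.57 with DMSO and 9.81, 10.01 and 9.91 with vemurafenib in A375, and 10.26, 10.11 and 10.19 with DMSO and 9.88, 9.81 and 9.74 with the drug in A2058. No drug array reached a DMSO array in either line, with changes of -0.65 ± 0.058 (adjusted p = 1.5e-06) and -0.38 ± 0.058 (adjusted p = 0.000286). The responses differed by -0.27 ± 0.083 (adjusted p = 0.0264); this call was lost on leaving out 1 array in 6 of 12 cases (A375 DMSO replicate 1 or 3, A2058 DMSO replicate 2 or 3, A2058 vemurafenib replicate 1 or 2), at adjusted p of up to 0.0707.

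DKC1, dyskerin, the pseudouridine synthase of the box H/ACA class, showed the opposite arrangement. It measured 8.70, 8.56 and 8.69 with DMSO and 8.52, 8.55 and 8.59 with the drug in A375, groups that overlapped (-0.097 ± 0.057, adjusted p = 0.235). In A2058 it went from 8.32, 8.39 and 8.43 to 7.84, 7.73 and 7.63, a fall of 1.57-fold (-0.65 ± 0.057, adjusted p = 2.43e-06), and the responses differed by 0.55 ± 0.081 (adjusted p = 0.000194). Of its partners in that class, NHP2 fell in A2058 alone by call (-0.30 ± 0.066 there, -0.0029 ± 0.066 in A375, difference 0.29 ± 0.093, adjusted p = 0.0303), and GAR1 was called in neither line (0.02 ± 0.050 in A375 and -0.02 ± 0.050 in A2058). NOP58, a core box C/D protein, fell in A2058 (-0.45 ± 0.082) and not by call in A375 (-0.028 ± 0.082), with a difference of 0.43 ± 0.12 (adjusted p = 0.0138). RRP9, which binds the snoRNA that directs the early cuts, did likewise (-0.39 ± 0.058 and -0.045 ± 0.058, difference adjusted p = 0.00678). NOLC1, a chaperone of these particles, fell in both (-0.23 ± 0.065 in A375 and -0.48 ± 0.065 in A2058). NHP2 had a second probe set, at 0.15 in A375 and -0.19 in A2058, so its values are uncertain.

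Of 12 small-subunit factors, 10 fell and none rose in A2058 (12.5% and 14.6% of all genes did), with a median of -0.40. In A375, 5 fell and 1 rose (19.3% and 17.7% of all genes did), with a median of -0.15. NOB1, the endonuclease that makes the last cut at the end of the small-subunit RNA, had the largest change of any member in either line. It stood at 10.07, 10.09 and 10.08 on the A375 DMSO arrays and at 8.89, 8.92 and 8.94 on the A375 vemurafenib arrays, a 2.24-fold fall (-1.17 ± 0.044, adjusted p = 3.23e-10). In A2058 it was 8.89, 8.94 and 8.94 with DMSO and 8.36, 8.52 and 8.49 with vemurafenib, a 1.38-fold fall (-0.47 ± 0.044, adjusted p = 3.89e-06). Treated A375 thus came down to the level of untreated A2058 for this gene, with group means of 8.92 and 8.93. The responses differed by -0.70 ± 0.062 (adjusted p = 2.42e-06), and without A375 vemurafenib replicate 1 the A375 change was -1.15 ± 0.048.

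UTP15, a subunit of the complex that joins the precursor first, was the member that rose most in A375. Its values were 7.70, 7.57 and 7.61 with DMSO and 7.85, 8.47 and 8.33 with vemurafenib, the latter spread widely with replicate 1 lowest (0.59 ± 0.13, adjusted p = 0.00295). Without that array the rise was 0.77 ± 0.088. In A2058 it measured 7.75, 7.53 and 7.91 with DMSO and 7.60, 7.68 and 7.58 with the drug, which overlapped (-0.11 ± 0.13, adjusted p = 0.684), and the responses differed by 0.70 ± 0.19 (adjusted p = 0.0121). Its partners in that complex did not follow it: UTP4 fell in both lines (-0.36 ± 0.042 in A375 and -0.46 ± 0.042 in A2058), and WDR43 fell, with changes of -0.17 ± 0.049 in A375 and -0.57 ± 0.049 in A2058, with a difference of 0.40 (adjusted p = 0.00068).

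RRP12, which escorts the particles out of the nucleus, measured 9.32, 9.20 and 9.23 with DMSO and 9.09, 9.14 and 9.13 with the drug in A375 and 7.74, 7.89 and 7.76 with DMSO and 7.25, 7.15 and 7.24 with the drug in A2058. The drug arrays lay below the DMSO arrays in each line, but the A375 change was not called (-0.13 ± 0.051, adjusted p = 0.0688), whereas that of A2058 was (-0.59 ± 0.051, adjusted p = 1.96e-06), and the 2 differed (adjusted p = 0.000311). TSR1, a late factor that resembles a GTPase, fell in both (-0.49 ± 0.082 and -0.56 ± 0.082, 95% interval of the difference -0.19 to 0.32), as did NOP14 (-0.45 ± 0.048 and -0.35 ± 0.048, interval -0.25 to 0.048). BYSL, bystin, fell in A2058 (-0.49 ± 0.045) and was not called in A375 (-0.11 ± 0.045), with a difference of 0.39 (adjusted p = 0.000453). Without A375 vemurafenib replicate 1 it was called down in A375 too (adjusted p = 0.0172).

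DDX10, an RNA helicase, measured 6.62, 6.70 and 6.75 with DMSO and 6.36, 6.83 and 6.79 with the drug in A375, with replicate 1 of the drug group far below the others (-0.031 ± 0.10, adjusted p = 0.874). In A2058 it went from 7.09, 7.06 and 7.16 to 6.82, 6.68 and 6.82 (-0.33 ± 0.10, adjusted p = 0.0287). Its response difference was not called (adjusted p = 0.157), and was called without that A375 array (0.45 ± 0.075, adjusted p = 0.000394). The rest of this set fell in A2058, at -0.30 for WDR3 and -0.18 for NOC4L, without a call in A375, and UTP20 was called in neither line but differed between them (0.26 ± 0.085, adjusted p = 0.0334). Each of these 3 A2058 falls was lost with some A2058 array left out: DDX10 with any of the 6 (up to 0.112), WDR3 with DMSO replicate 1 or 3 or vemurafenib replicate 2 or 3 (up to 0.136), and NOC4L with DMSO replicate 2 or 3 or vemurafenib replicate 1 or 2 (up to 0.105). In A375, WDR3 was called down without vemurafenib replicate 3 (adjusted p = 0.0334), RRP12 without A2058 DMSO replicate 2 (0.042) and UTP20 up without vemurafenib replicate 1 (0.0124).

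**Figure D2:**
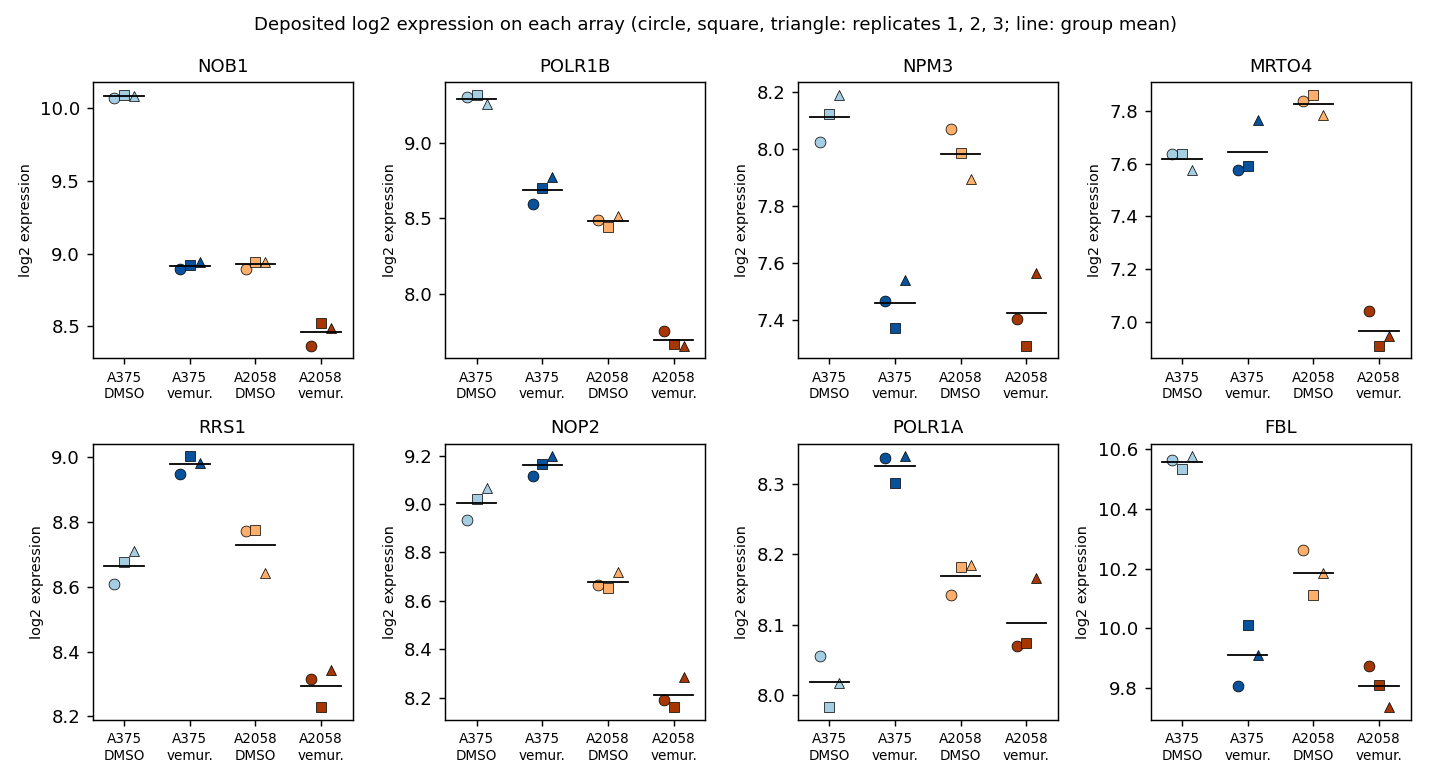
Deposited log2 expression (y axis, a separate range in each panel) of 8 members on each of the 12 arrays, grouped on the x axis by line and treatment; circles, squares and triangles are replicates 1, 2 and 3 and lines are group means. NOB1, POLR1B, NPM3 and FBL are lower with vemurafenib in both lines, MRTO4 is lower with it in A2058, POLR1A is higher with it in A375, and RRS1 and NOP2 are higher with the drug in A375 and lower with it in A2058.

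Large-subunit factors fell almost throughout in A2058, in 10 of 12 measured with none rising and a median of -0.33 (12.5% of all genes fell). In all 12 the drug arrays lay below the DMSO arrays there, as in 18.7% of all genes. In A375, 6 fell and 2 rose (19.3% and 17.7% of all genes did), with a median of -0.13. MRTO4, which holds the place of the stalk protein until the subunit matures, fell most of all members in A2058, from 7.84, 7.86 and 7.78 to 7.04, 6.91 and 6.95 (-0.86 ± 0.056, 1.82-fold lower, adjusted p = 1.22e-07). In A375 it measured 7.64, 7.64 and 7.58 with DMSO and 7.58, 7.59 and 7.77 with vemurafenib, groups that overlapped (0.028 ± 0.056, adjusted p = 0.785). The difference of 0.89 ± 0.079 (adjusted p = 2.24e-06) was the largest of any member.

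RRS1, which helps to bring the smallest ribosomal RNA into the subunit, went in opposite directions. In A375 it rose from 8.61, 8.68 and 8.71 to 8.95, 9.00 and 8.98 (0.31 ± 0.049, adjusted p = 0.000212), and in A2058 it fell from 8.77, 8.78 and 8.64 to 8.31, 8.23 and 8.34 (-0.44 ± 0.049, adjusted p = 2.16e-05). Neither line had overlapping groups, and the responses differed by 0.75 ± 0.070 (adjusted p = 3.7e-06). NOP2, a methyltransferase of the large-subunit RNA, did the same on a smaller scale in A375, with 8.93, 9.02 and 9.07 against 9.12, 9.17 and 9.20 (0.15 ± 0.048, adjusted p = 0.0226). In A2058 it went from 8.66, 8.65 and 8.72 to 8.19, 8.16 and 8.29 (-0.47 ± 0.048, adjusted p = 9.18e-06), and the difference was 0.62 ± 0.068 (adjusted p = 1.53e-05). Its rise in A375 lost its call with DMSO replicate 1 or drug replicate 2 or 3 of that line removed, at adjusted p of up to 0.111.

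NOC3L, which travels with early precursors of this subunit, measured 8.45, 8.49 and 8.39 with DMSO and 7.93, 8.26 and 8.26 with the drug in A375 and 7.38, 7.22 and 7.45 with DMSO and 6.97, 6.87 and 6.78 with the drug in A2058. It fell in both (-0.29 ± 0.089, adjusted p = 0.0202, and -0.47 ± 0.089, adjusted p = 0.00127), but its A375 fall did not pass with drug replicate 1 removed (adjusted p = 0.0512) or with DMSO replicate 1 or 2 removed (up to 0.0719). Its partner NOC2L fell in both as well (-0.37 ± 0.053 and -0.28 ± 0.053). RRP1 measured 7.57, 7.52 and 7.57 with DMSO and 7.71, 7.42 and 7.40 with the drug in A375, where replicate 1 with drug was the highest array and the change was not called (-0.046 ± 0.075, adjusted p = 0.727); without that array it was (-0.15 ± 0.052, adjusted p = 0.0362). In A2058 it fell from 8.17, 8.08 and 8.08 to 7.78, 7.78 and 7.93 (-0.28 ± 0.075, adjusted p = 0.0137), a call lost without A2058 DMSO replicate 1 or A2058 vemurafenib replicate 1 or 2 (up to 0.0608).

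PES1, BOP1 and WDR12 form one complex. PES1 fell in both lines (-0.33 ± 0.053 in A375 and -0.20 ± 0.053 in A2058, the latter lost without A2058 vemurafenib replicate 2, adjusted p = 0.0588), BOP1 fell by call in A375 only (-0.22 ± 0.080 and -0.19 ± 0.080; difference -0.038 ± 0.11, not called), and WDR12 was called in neither (-0.089 ± 0.074 and -0.19 ± 0.074). The BOP1 call (adjusted p = 0.0442) was lost on leaving out any A375 DMSO array, A375 vemurafenib replicate 2 or 3 or any A2058 vemurafenib array, and the dimmer of its 2 probe sets changed by -0.34 in A375 and -0.38 in A2058. WDR74 and DDX56 fell in both lines, with changes of -0.38 and -0.17 in A375 and -0.49 and -0.25 in A2058, and NOP16 fell in A2058 (-0.38 ± 0.062) with no call in A375 (0.06 ± 0.062, difference adjusted p = 0.00191).

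The 5 nucleolar proteins with several roles all fell in A2058, and 3 of them fell in A375 (12.5% and 19.3% of all genes did). NPM3, a chaperone that partners NPM1, measured 8.02, 8.12 and 8.19 with DMSO and 7.47, 7.37 and 7.54 with vemurafenib in A375, and 8.07, 7.99 and 7.89 with DMSO and 7.40, 7.31 and 7.56 with the drug in A2058. It fell without overlap, with changes of -0.65 ± 0.073 (1.57-fold, adjusted p = 1.03e-05) and -0.56 ± 0.073 (1.47-fold, adjusted p = 7.31e-05), and the 95% interval of the difference was -0.32 to 0.13. LYAR, a nucleolar zinc finger protein, measured 7.54, 7.56 and 7.47 with DMSO and 6.81, 7.09 and 7.12 with the drug in A375 and 6.89, 6.97 and 6.96 with DMSO and 6.33, 6.29 and 6.16 with the drug in A2058, and also fell in both (-0.52 ± 0.075, adjusted p = 0.000103, and -0.68 ± 0.075, adjusted p = 1.82e-05). These were among the largest falls of members in each line.

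NPM1, nucleophosmin, the abundant nucleolar chaperone, measured 11.42, 11.47 and 11.42 with DMSO and 10.99, 11.18 and 11.20 with the drug in A375 and 11.12, 10.99 and 11.15 with DMSO and 10.94, 10.93 and 10.86 with the drug in A2058. It fell, with changes of -0.31 ± 0.059 in A375 (adjusted p = 0.00094) and -0.18 ± 0.059 in A2058 (adjusted p = 0.0421), and the A2058 call was lost on leaving out any A375 DMSO array, A2058 DMSO replicate 1 or 3 or any A2058 vemurafenib array, at adjusted p of up to 0.15. A second bright probe set changed by -0.57 in A375 and -0.25 in A2058, and NPM1 has many near-identical pseudogenes, so its value is uncertain. NCL, nucleolin, measured 10.02, 10.04 and 10.02 with DMSO and 9.81, 9.86 and 10.01 with the drug in A375, where the groups did not overlap but the change was not called (-0.13 ± 0.060, adjusted p = 0.111). In A2058 it fell from 10.41, 10.25 and 10.45 to 10.14, 10.13 and 10.19 (-0.22 ± 0.060, adjusted p = 0.016); without A2058 DMSO replicate 1 or 3 or A2058 vemurafenib replicate 1 or 2 this call was lost, and without A375 vemurafenib replicate 3 NCL was called down in A375 (adjusted p = 0.0226). DDX21, a helicase that acts on ribosomal DNA and RNA, fell in A2058 (-0.49 ± 0.056) and was not called in A375 (-0.13 ± 0.056), with a difference of 0.36 ± 0.079 (adjusted p = 0.00356).

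The difference between the responses was tested for every member. In 17 of 42 the A375 response lay above the A2058 response, where 13.1% of all genes did, and in 2, NOB1 and FBL, it lay below, where 16.4% did (29.5% in either direction). The median difference was 0.19, against -0.0053 for all genes. Without A375 vemurafenib replicate 1 the member counts were 22 and 2, and POLR1B, NOLC1, DDX10, NOC3L and LYAR were the added ones. Counts over all genes grew too, from 2416 to 3119 above and from 3018 to 3519 below. Of the 17 members that fell in both lines, 14 had no called difference, which does not show that they fell equally.

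**Figure D3:**
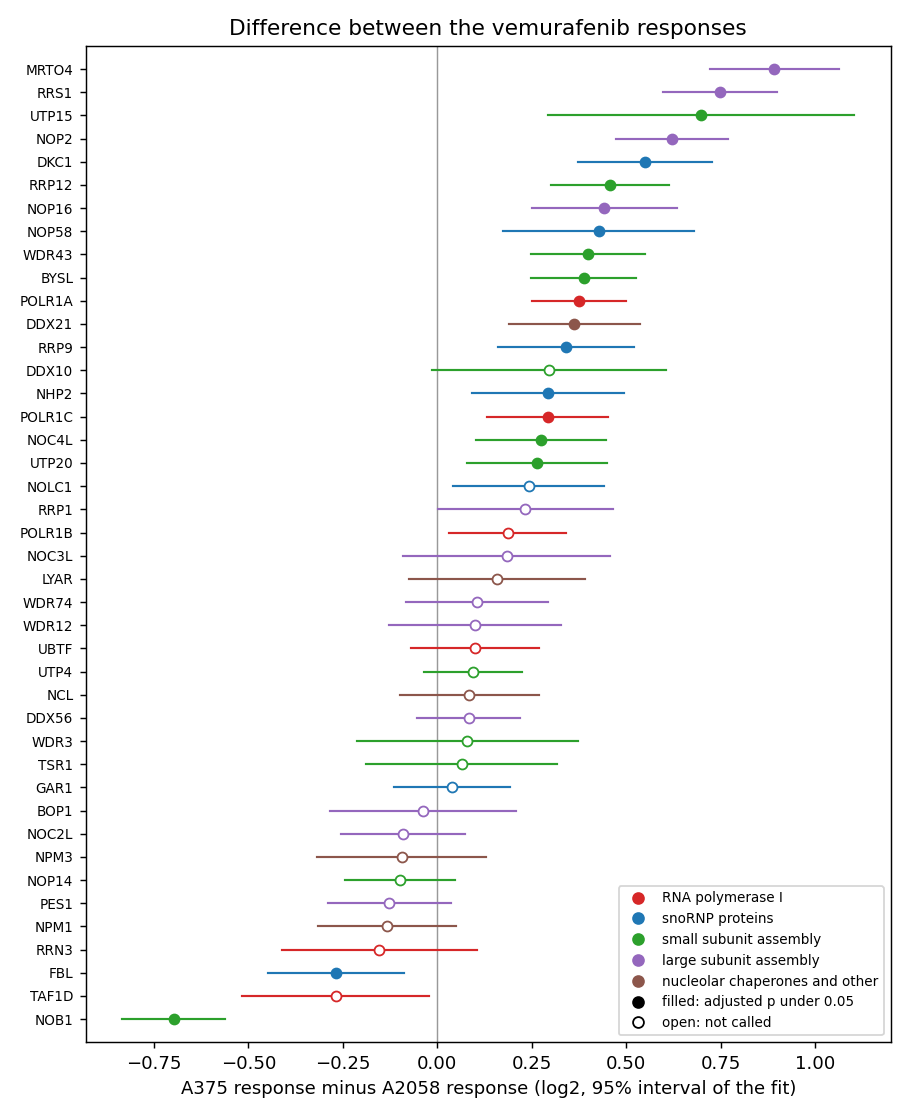
The A375 response minus the A2058 response (x axis, log2, bars are 95% intervals of the fit) for each of the 42 members on the y axis, coloured by role and filled where the adjusted p was under 0.05. The members run from NOB1 at -0.70 to MRTO4 at 0.89, and 32 of 42 lie above 0.

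Before any drug, the lines already differed in these genes. In DMSO, 24 of 42 members were higher in A375 and 9 were lower, where 23.9% of all genes were higher and 22.5% lower, with a median of 0.29 against -0.0066. RRP12 differed most, at 1.45 ± 0.051 (2.74-fold higher in A375, adjusted p = 1.48e-10), followed by NOB1 (1.16 ± 0.044, 2.23-fold) and NOC3L (1.09 ± 0.089, 2.13-fold). WDR74, NOC2L and WDR3 were also more than 2-fold higher. On the other side, RRP1 (-0.56 ± 0.075), DDX10 (-0.41 ± 0.10) and NCL (-0.35 ± 0.060) were lower in A375 by the largest margins. Over all members the DMSO arrays of the lines did not overlap in 25 higher and 10 lower in A375, against 28.5% and 28.3% of all genes. For each of these 9 named genes no A375 DMSO array overlapped an A2058 DMSO array.

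Under vemurafenib, 30 members were higher in A375 and 4 lower, where 22.7% and 24.2% of all genes were, with a median of 0.53. Arrays did not overlap in 30 higher and 3 lower members, against 24.7% and 26.5%. RRP12 reached 1.91 ± 0.051 (3.76-fold), and NOB1 dropped to 0.46 ± 0.044. MRTO4 and BYSL were lower in A375 with DMSO (-0.21 ± 0.056 and -0.15 ± 0.045) and higher there with the drug (0.68 ± 0.056 and 0.24 ± 0.045), and POLR1A also changed sides (-0.15 ± 0.040 and 0.22 ± 0.040). In 23 members A375 was higher by call under both conditions, against 15.5% of all genes. With A375 vemurafenib replicate 1 left out, FBL under vemurafenib was called higher in A375 (0.15, adjusted p = 0.0327) and BOP1 lower (-0.25, adjusted p = 0.0137). WDR12 then lost its call as lower under vemurafenib (-0.11, adjusted p = 0.104). The change of a gap from DMSO to drug is the response difference given above, and these comparisons share their arrays with the drug comparisons.

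**Figure D4:**
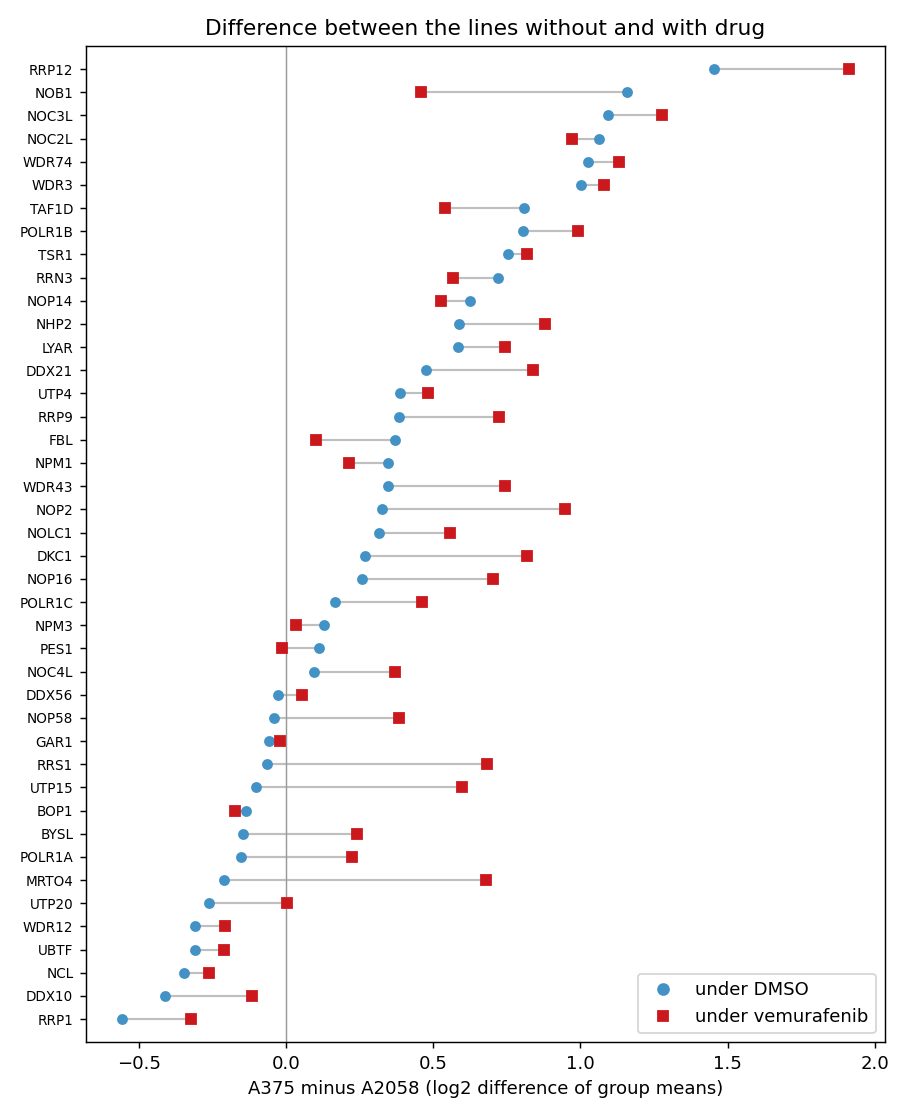
The difference between the lines (x axis, A375 minus A2058, log2 difference of group means of 3 arrays) for each of the 42 members (y axis), as circles under DMSO and squares under vemurafenib. RRP12 is at the top with 1.45 and 1.91, MRTO4 crosses from -0.21 to 0.68, and NOB1 moves from 1.16 to 0.46.

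Other genes of the same pathway, taken from lists that hold no member, were also measured. These lists too were chosen with earlier results of these data known. Of 84 measured among 87 further factors for RNA polymerase I and both subunits, 39 fell and 1, NOP9, rose in A2058, with a median of -0.18, and 31 fell and 12 rose in A375, with a median of -0.085. As shares these were 46.4% down and 1.19% up in A2058, against 12.5% and 14.6% of all genes, and 36.9% and 14.3% in A375, against 19.3% and 17.7%. In the response difference, 16 of them lay above 0 and 7 below by call (19.0% and 8.33%, against 13.1% and 16.4%). Largest changes in A2058 were those of BRIX1, a large-subunit factor (-0.62 ± 0.11), EMG1, a methyltransferase of the small-subunit RNA (-0.59 ± 0.060), NOL6 (-0.54 ± 0.062) and URB2 (-0.47 ± 0.070). In A375 they were those of NLE1, a remodelling factor of the large subunit (-0.89 ± 0.070), and the RNA polymerase I subunit POLR1E (-0.75 ± 0.054), with TSR2 (0.58 ± 0.073), LSG1 (0.44 ± 0.067) and UTP3 (0.43 ± 0.070) rising.

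Of 9 further genes of RNA polymerase I, 5 fell and 1 rose in A375 (19.3% and 17.7% of all genes did). In A2058, 3 fell and none rose (12.5% and 14.6% of all genes did). POLR1D (-0.62 ± 0.054 in A375 and 0.053 ± 0.054 in A2058) and POLR1H (-0.54 ± 0.049 and -0.013 ± 0.049) fell in A375 without a call in A2058, with differences of -0.67 ± 0.077 (adjusted p = 2.23e-05) and -0.53 ± 0.070 (adjusted p = 7.13e-05). POLR1F rose in A375 (0.27 ± 0.062) and fell in A2058 (-0.30 ± 0.062), as did RRS1 and NOP2 among the members (difference 0.57 ± 0.088, adjusted p = 0.000287). POLR1E fell in both lines, at -0.37 in A2058.

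Of the ribosomal proteins, the cargo of this machinery, 58 of 79 were measured. In A375 36 fell and 22 were not called, and in A2058 28 fell and 30 were not called (19.3% and 12.5% of all genes fell). None rose in either, and the medians were -0.16 and -0.13. RPL10 (-0.91 ± 0.067) and RPL28 (-0.65 ± 0.042) fell most in A375, and RPS24 (-0.58 ± 0.078) and RPL36 (-0.39 ± 0.057) in A2058. Responses of ribosomal proteins differed between lines by call in 3 of 58 (5.17%), all lower in A375. Of all genes, 16.4% were lower and 13.1% higher in A375. Among members, 2 of 42 differed in the same direction and 17 in the other. With DMSO, 47 of 58 ribosomal proteins were higher in A375 and none lower, where 23.9% and 22.5% of all genes were. Many ribosomal protein genes have processed pseudogenes, so single values are uncertain. Of 20 measured genes of RNA polymerase III and its factors, 4 (a share near that of all genes) fell and 1 rose in A375 (19.3% and 17.7% of all genes did), and 6 fell and 1 rose in A2058 (12.5% and 14.6% did). POLR3G (-0.28 ± 0.046 in A375 and -0.70 ± 0.046 in A2058) fell in both, POLR3D most in A375 (-0.70 ± 0.050) and POLR3K next in A2058 (-0.47 ± 0.041).

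**Figure D5:**
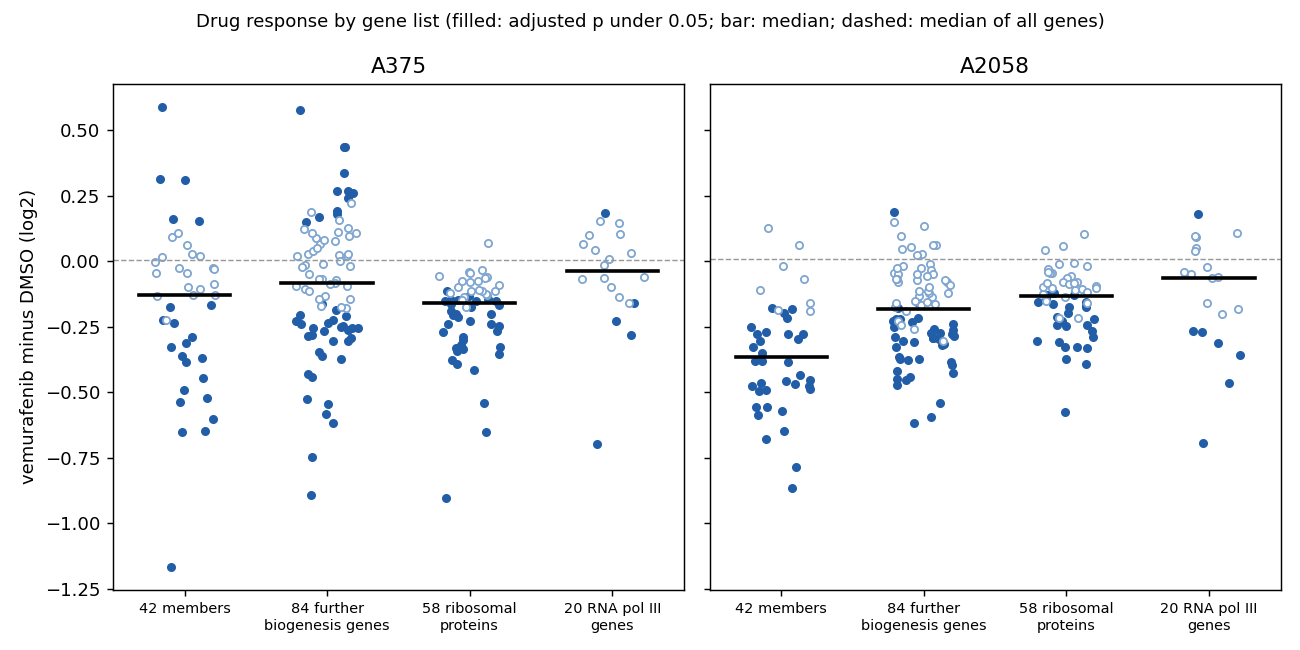
Vemurafenib minus DMSO (y axis, log2) for each gene of 4 lists (x axis) in A375 on the left and A2058 on the right, filled where the adjusted p was under 0.05; bars are list medians and the dashed line is the median of all genes. In A2058 the member median is at -0.36, below the medians of further biogenesis genes (-0.18), ribosomal proteins (-0.13) and RNA polymerase III genes (-0.063); in A375 the members spread from -1.17 to 0.59.

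MYC, a transcription factor known to drive these genes, measured 6.93, 7.02 and 6.87 with DMSO and 6.29, 6.08 and 6.28 with vemurafenib in A375, and 8.71, 9.00 and 8.86 with DMSO and 8.48, 8.58 and 8.57 with the drug in A2058. It fell in both lines, at -0.72 ± 0.077 in A375 (adjusted p = 6.54e-06) and -0.32 ± 0.077 in A2058 (adjusted p = 0.00766). With DMSO the A375 level of MYC minus the A2058 level was -1.92. Of the 42 members, 24 were higher and 9 lower in A375 with DMSO, where 23.9% and 22.5% of all genes were. The part of MYC in the member values was not tested. Of 10 listed genes of the MYC network, 5 fell and 2 rose in A375 (19.3% and 17.7% of all genes did). In A2058, 2 fell and 3 rose (12.5% and 14.6% did). MLX fell in both lines (-0.41 ± 0.038 and -0.24 ± 0.038). Of the MYC antagonists, MXD4 rose in both (0.25 ± 0.051 and 0.71 ± 0.051) and MXD1 likewise (0.40 ± 0.066 and 0.34 ± 0.066). MXI1 fell in A375 (-0.30 ± 0.048) and rose in A2058 (0.41 ± 0.048). No other gene of this list rose in either line, and the remaining falls in A375 are not named here.

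Promoters of members were read from RefSeq (GRCh38.p14) as the 250 bases before the transcription start, available for 40 of 46, and 3 motifs were searched on both strands. The ETS core CCGGAAG, the letters shared by many sites of the ETS family to which ETV4 and ETV5 belong, stood in 15 of 40 member promoters (37.5%), in 8.8% of all 27305 promoters and in 12.1% of those of measured genes. It was present in 9 of 16 members that fell in both lines and in 5 of 13 that fell in A2058 without a call in A375. Of members called in neither line 1 of 4 held it, and none of the 4 with a promoter in the table that rose in A375 did. The core was not counted among all genes of the same classes, and its link to the responses was not tested. The E-box CACGTG, a known MYC site, was in 2 of 40 (5.0%), against 6.5% of all promoters and 7.9% of those of measured genes. TATAAA was in 1 of 40 (2.5%), against 11.1% and 8.6%. A match to one of these motifs cannot be a match to another. Median GC content was 64.8% in members, 62.8% in measured genes and 58.0% in all promoters. A match describes letters alone and is no evidence of binding, and a window without one tells nothing of the factor.

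The sequences below show the promoters of POLR1B, TSR1 and UTP4, which fell in both lines and hold matches, beside those of NOB1 and MRTO4, which fell most in A375 and in A2058 and hold none. They run 5′ to 3′ on the strand of the gene and end at the base before its start, and capitals mark the ETS core on either strand or the E-box.
POLR1B, chr2:112541786-112542035, plus strand: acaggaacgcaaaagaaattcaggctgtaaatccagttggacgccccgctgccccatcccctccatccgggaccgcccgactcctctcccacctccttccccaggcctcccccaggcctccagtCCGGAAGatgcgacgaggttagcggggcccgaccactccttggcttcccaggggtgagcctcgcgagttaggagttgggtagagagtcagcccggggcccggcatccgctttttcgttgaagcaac
TSR1, chr17:2336458-2336707, minus strand: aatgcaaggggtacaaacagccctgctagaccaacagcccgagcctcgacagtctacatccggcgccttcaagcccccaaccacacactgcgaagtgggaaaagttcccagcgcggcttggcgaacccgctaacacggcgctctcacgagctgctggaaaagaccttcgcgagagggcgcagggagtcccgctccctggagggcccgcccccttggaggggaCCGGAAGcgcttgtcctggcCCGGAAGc
UTP4, chr16:69132399-69132648, plus strand: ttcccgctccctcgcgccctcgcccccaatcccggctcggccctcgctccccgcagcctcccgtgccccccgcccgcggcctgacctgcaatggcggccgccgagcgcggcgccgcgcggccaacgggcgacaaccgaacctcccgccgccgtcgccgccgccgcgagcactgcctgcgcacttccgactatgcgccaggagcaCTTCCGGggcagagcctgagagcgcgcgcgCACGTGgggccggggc
NOB1, chr16:69754927-69755176, minus strand: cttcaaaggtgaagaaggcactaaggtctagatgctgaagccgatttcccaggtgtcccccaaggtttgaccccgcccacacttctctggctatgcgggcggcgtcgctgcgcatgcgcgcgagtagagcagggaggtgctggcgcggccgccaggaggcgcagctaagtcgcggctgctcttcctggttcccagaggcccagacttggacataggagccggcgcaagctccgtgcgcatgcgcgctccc
MRTO4, chr1:19251555-19251804, plus strand: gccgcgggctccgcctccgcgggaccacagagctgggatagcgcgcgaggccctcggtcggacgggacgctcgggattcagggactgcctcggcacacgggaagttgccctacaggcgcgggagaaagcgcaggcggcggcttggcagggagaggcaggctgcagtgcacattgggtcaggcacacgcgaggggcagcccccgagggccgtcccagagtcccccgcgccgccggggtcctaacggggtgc
In POLR1B the ETS core began at position -126, counted backwards from the start, and in TSR1 it stood at -28 and -8. UTP4 held an ETS core on the opposite strand at -46 and the E-box at -16, and was the one member with both. NOB1 and MRTO4, with the largest falls in A375 and in A2058, had none of the 3 motifs in this window.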

How the data were processed

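Total RNA was amplified, labelled and hybridised to Affymetrix Human Gene 1.0 ST arrays, per the labels' protocols and platform annotation. The authors deposited log2 expression values for 32321 probe sets on 12 arrays; R 3.0.1 and affy are named in the submitters' processing notes, and for background correction, normalization and summary the method is not given in the sources used here. Values (3.24 to 13.08) were used as deposited; no depth applies, and array number limits precision. Of the probe sets, 19158 carried 1 symbol, 1388 several and 11775 none; current symbols came from RefSeq (GRCh38.p14) by Entrez number, with 19128 matched. The brightest probe set per gene left 18404 genes.

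limma 3.58.1 in R 4.3.3 fitted 4 group means (8 residual, 3.98 prior degrees of freedom), two-sided, Benjamini-Hochberg over all genes. The steps were tested on simulated data. Members, lists and the naming rule (RNA polymerase I genes, NPM1, NPM3, NOB1 and the largest called changes per comparison; 2 leading genes per further list) were chosen with earlier results of these data known. NOP2, POLR1H, POLR1F in A2058, MXD1 and MXI1 in A375 and every gene of a count of 5 or fewer were named after their values were seen. Alternatives covered probe sets, arrays in the fit, scaling, weights, prior, dim genes, threshold, the replicate block and each array left out.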

Additional observations from a re-analysis of the deposited data

Results flagged for a closer look

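Members below had a vemurafenib response that differed between A375 and A2058 by the test of the difference itself (limma, adjusted p under 0.05); each value is the A375 response minus the A2058 response on the log2 scale. Above 0 were MRTO4 (0.89), RRS1 (0.75), UTP15 (0.70), NOP2 (0.62), DKC1 (0.55), RRP12 (0.46), NOP16 (0.44), NOP58 (0.43), WDR43 (0.40), BYSL (0.39), POLR1A (0.37), DDX21 (0.36), RRP9 (0.34), POLR1C (0.29), NHP2 (0.29), NOC4L (0.28) and UTP20 (0.26). Below 0 were NOB1 (-0.70) and FBL (-0.27). Calls of NHP2 and UTP20 were each lost on leaving out 1 array in 8 of 12 cases, that of FBL in 6, and that of NOC4L without A375 DMSO replicate 3 (adjusted p = 0.0501).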

How the results depend on the processing

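Over single arrays left out, 3 to 5 members rose and 16 to 19 fell in A375, and 0 rose and 26 to 36 fell in A2058. As signed values, the A375 response lay above the A2058 response in 15 to 22 and below it in 1 to 3. A response above the other can be a weaker fall. In A375, 3 members rose with its arrays fitted alone and 3 with a threshold of 0.01. The A375 response lay below the A2058 response, as a signed value, in 1 member (NOB1, which fell more in A375) with that threshold. It did so in 1 with each array centred on its median and in 1 with the replicate block. Replicate numbers were not taken to pair the samples. Deviations of same-numbered arrays correlated at r of -0.395 to 0.351, which cannot show whether those samples were prepared together. The replicate block gave 17 falls and 4 rises in A375 and 33 falls in A2058. The other 8 counts over all members in a single comparison stayed within 1.5 times the values given under the alternatives tried. At 0.01, 11 members fell in both lines instead of 17, nucleolar falls in A2058 went from 5 to 3, snoRNP falls in A375 from 2 to 1, and rises in A375 from 2 to 1 for both RNA polymerase I and the large subunit. None of the 20 members that the naming rule picked (NOP2 was not one) reversed a called change. NPM1 lost its A2058 call with the mean of its probe sets (-0.12), median centring (-0.20) or quantile normalization (-0.13). FBL lost its response difference with median centring (-0.25). With 3 arrays per group, small changes near the threshold cannot be settled.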

Other observations

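Values exist for 2 members that were left out because their probe set names several genes. The probe set of NOP56, a core box C/D protein, also names the small nucleolar RNA SNORD56, and it measured 6.39 ± 0.027 and 6.52 ± 0.034 (SD, n = 3) in A375 with DMSO and vemurafenib and 6.71 ± 0.045 and 6.59 ± 0.081 (SD, n = 3) in A2058. The probe set of PPAN, a large-subunit factor, also names P2RY11 and the read-through of both, and it measured 6.53 ± 0.037 and 6.70 ± 0.065 (SD, n = 3) in A375 and 6.01 ± 0.063 and 5.80 ± 0.067 (SD, n = 3) in A2058. Group means were thus higher with the drug in A375 and lower with it in A2058 for both, as for RRS1 and NOP2; these values were not tested.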
